A study of Oryzias latipes with 5 samples.

Results

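Fibroblast growth factors (FGFs) are secreted proteins that bind, together with heparan sulfate, to tyrosine kinase receptors and start the Ras-ERK kinase cascade. The cascade turns on ETS transcription factors and its own inhibitors, among them sprouty proteins, Spred proteins and dual specificity phosphatases. In the mammalian skeleton FGF18 and FGFR3 restrain the proliferation of growth plate chondrocytes, and FGFR1 and FGFR2 act in osteoblasts and their precursors. The genes of this pathway were described in medaka (Oryzias latipes), a small laboratory fish. They were chosen by symbol: FGF ligands other than fgf23, their receptors, the receptor-like FGFRL1 genes, FGF-binding proteins, the adaptors frs2 and frs3, the inhibitors spry, spred, dusp4, dusp6 and il17rd, the ETS factors etv1, etv4 and etv5, and the flrt genes. This gave 52 of the 25689 genes in the deposited table.

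Cells carrying the col10a1:nlGFP reporter were compared between heterozygous col10a1 mutants (genotype col10a1wt/mut, 2 libraries) and wild-type fish (col10a1wt/wt, 3 libraries). All fish were of the Cab strain, were homozygous for the reporter (col10a1:nlGFP+/+), and were kept at 30 °C to 10 days post fertilization. The cells are labelled as chondrocytes and osteoblast progenitors, and the libraries are described as biological replicates. Not given in the sources used here are the number of fish per library, the way cells were isolated and the gene copy that is mutated. Type X collagen, the product of col10a1, is a matrix protein of hypertrophic chondrocytes and, in fish, of osteoblasts.

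The deposited values are FPKM, fragments scaled to gene length and library size. Recovered read totals were 25580595 and 27916294 in mutant libraries and 24791662 to 28012092 in wild-type libraries. Mutant library 2 stood apart: it had reads on 12334 genes, against 21134 in mutant library 1 and 19397 to 20692 in wild-type libraries. Values of the FGF pathway genes are therefore given per library. Transcripts of col10a1a stood at 4055 and 4135 FPKM in mutant libraries and at 5384, 7272 and 6781 FPKM in wild-type libraries. Those of col10a1b stood at 301 and 580 FPKM in mutant libraries and at 374, 657 and 461 FPKM in wild-type libraries. For col10a1b, mutant library 2 was inside the wild-type range. The log2 differences were -0.65 for col10a1a and -0.21 for col10a1b. These levels do not show which allele was read. Osteoblast markers were abundant, with a summed level of 16857 and 16446 FPKM in mutant and 19626 to 22868 FPKM in wild-type libraries. Of 16 tested, 12 had a lower mean in mutants and 4 a higher one, and 0 passed (median log2 difference -0.42). The list and its sum include col10a1a and col10a1b. The 4 with the smallest p were postn, sparc, col1a1b and alpl, with log2 differences of -1.12, -0.86, -0.77 and -2.11. Of these, alpl stood at 9.61 and 0.0484 FPKM in mutant and 12.5 to 14.2 FPKM in wild-type libraries. Among the 4 higher ones, phospho1 stood at 6084 and 6243 FPKM in mutant and 4894 to 5369 FPKM in wild-type libraries. entpd5b stood at 6.16 and 5.20 FPKM in mutant and 2.59 to 4.59 FPKM in wild-type libraries. Among the 12 lower ones, sp7 stood at 212 and 251 FPKM in mutant and 193 to 279 FPKM in wild-type libraries (log2 difference -0.066). Chondrocyte markers were present at lower levels, with a summed level of 211 and 244 FPKM in mutant and 397 to 497 FPKM in wild-type libraries. Skeletal muscle, epidermis, liver and exocrine pancreas are not named in the labels. Skeletal muscle markers summed to 1322 and 783 FPKM in mutant and 1178 to 1676 FPKM in wild-type libraries. Epidermis markers summed to 1235 and 612 FPKM in mutant and 744 to 1604 FPKM in wild-type libraries. Markers of liver and exocrine pancreas summed to 86283 and 35538 FPKM in mutant and 50454 to 61720 FPKM in wild-type libraries. Of these, apoa1b alone gave 49418 and 15232 FPKM in mutants and 28251 to 36657 FPKM in wild-type libraries. At least 1 FPKM was reached by 20 and 16 of 21 chondrocyte markers in mutants and by 18 to 19 in wild-type libraries, and by 13 and 10 of 14 liver and pancreas markers in mutants and by 12 to 13 in wild-type libraries.

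Of the 52 FGF pathway genes, 30 reached at least 1 FPKM in at least 2 libraries and entered the test. They were 8 of 17 secreted FGFs, 1 of 6 intracellular FGFs, all 5 receptors, both FGFRL1 copies, 2 of 3 FGF-binding proteins, 7 of 9 feedback inhibitors, all 3 ETS factors, 2 of 5 flrt genes and 0 of 2 adaptors. The gene in this set with the highest wild-type mean was fgfbp2b, and it lay apart from the rest. It encodes a carrier that in mammals belongs to a family releasing FGFs from the matrix, and it stood at 84.8 and 162 FPKM in mutant libraries and at 143, 111 and 112 FPKM in wild-type libraries. Next in the wild-type order came FGFRL1, fgfr2, spry2, fgf19, fgfr1b and fgfr3. Only 2 of 29 neighbouring pairs in that order had wild-type ranges that did not overlap, fgfbp2b over FGFRL1 and fgf7 over fgf14, so most ranks were not separated by the spread between wild-type libraries.

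**Figure D1:**
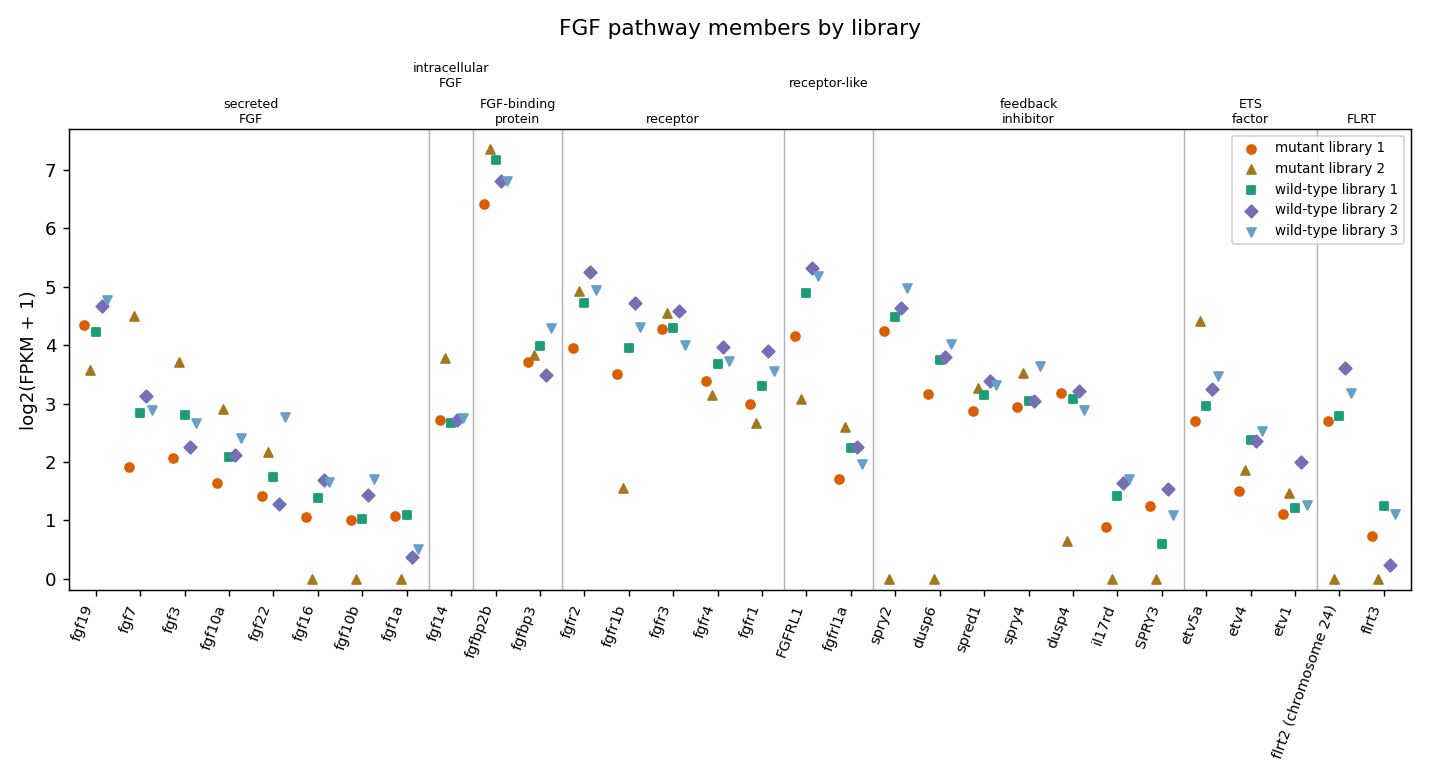
Level of each of the 30 tested FGF pathway genes as log2(FPKM + 1) (vertical axis), grouped by role, with 1 point per library: 2 mutant and 3 wild-type libraries. fgfbp2b lies above all others in wild-type libraries, and 9 genes have no read in mutant library 2 and sit at 0.

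None of the 30 tested genes changed between the genotypes at an adjusted p under 0.05 (limma on log2(FPKM + 1), Benjamini-Hochberg over 13680 genes), where 0.00731% of all tested genes passed, a single gene outside this pathway. Their adjusted p ran from 0.399 to 0.998. Of the 30, 23 (76.7%) had a lower mean in mutants and 7 a higher one, where 65.9% of all tested genes were lower, and their median log2 difference was -0.48, beside -0.31 for all tested genes. With quantile normalization 17 were lower and 13 higher, where 48.8% of all genes were lower. The unadjusted p was under 0.05 for 6, all lower in mutants (FGFRL1, fgfr1b, dusp6, il17rd, spry2 and the flrt2 copy on chromosome 24), where 7.6% of all genes were lower and 3.21% were higher at that level. Over all genes that excess of lower ones depended on the scaling: 1040 were lower and 439 higher as deposited, 560 lower and 588 higher with median-of-ratios scaling, and 562 lower and 670 higher with quantile normalization. il17rd, which is among the 6 and also among the 11 described next, passed the filter on low values through wild-type libraries alone. Both mutant libraries lay below every wild-type library for 11 genes, where 26% of all tested genes did so, and above every one for 0, where 8.33% did so. In bulk libraries fewer cells of a type and less RNA per cell cannot be told apart.

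**Figure D2:**
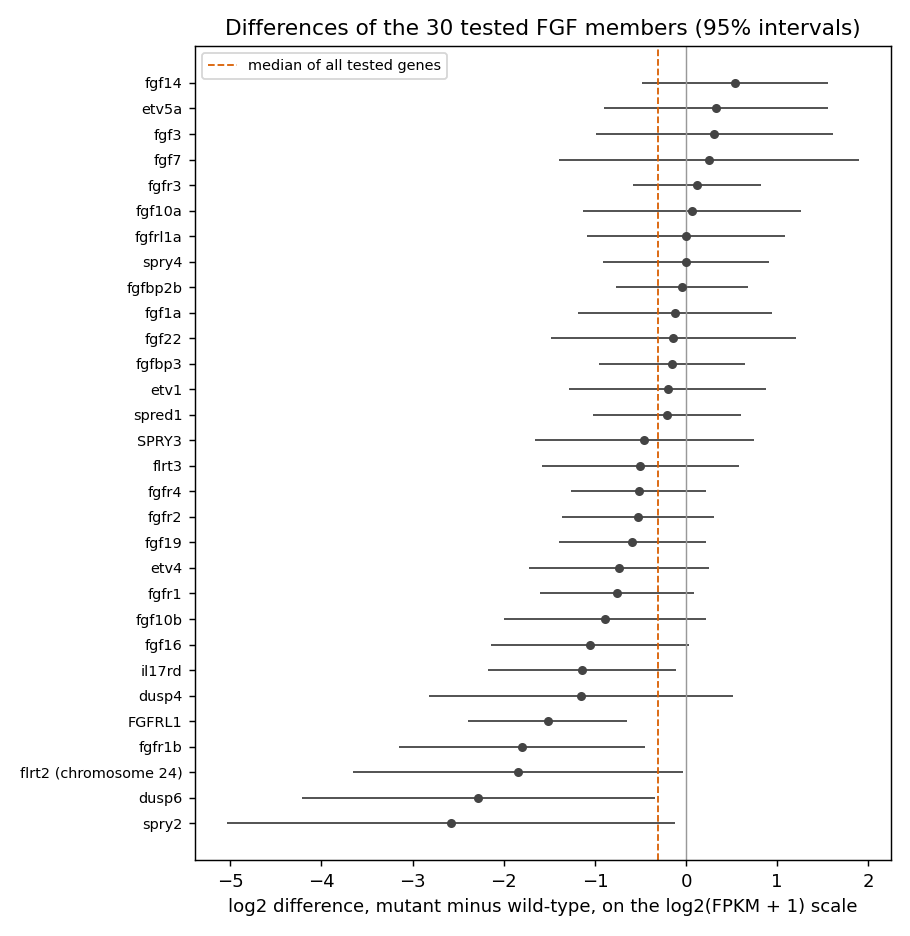
Log2 difference of mutant minus wild-type libraries on the log2(FPKM + 1) scale (horizontal axis) for the 30 tested genes, sorted from highest to lowest. Points are estimates, bars are 95% intervals from limma (2 mutant and 3 wild-type libraries), and the dashed line is the median of all tested genes, -0.31. 6 intervals lie wholly below 0 and none above it.

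The 2 mutant libraries departed from the wild-type ones in different ways. Mutant library 1 lay below every wild-type library for 21 of the 30 genes and above every one for 0, where 40.6% of all tested genes lay below and 16% above. Mutant library 2 lay below for 16 and above for 7, where 55.4% and 30.7% of all genes did so. For 6 genes, fgf3, fgf7, fgf10a, fgfbp2b, fgfrl1a and etv5a, mutant library 1 was below and mutant library 2 above all wild-type libraries. That split held for 9.88% of all tested genes. On the log2(FPKM + 1) scale the 30 genes deviated from their wild-type means by a median of -0.47 (mutant library 1) and -0.60 (mutant library 2), beside -0.16 and -0.49 for all tested genes. With mutant library 1 as the only mutant, 0 of 30 genes passed, where 0.0149% of all genes did. With mutant library 2 as the only mutant, 15 of 29 passed (11 lower, 4 higher), or 51.7%, where 54.3% of all genes passed. Those p rest on the spread among wild-type libraries, since 1 mutant library has none of its own.

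**Figure D3:**
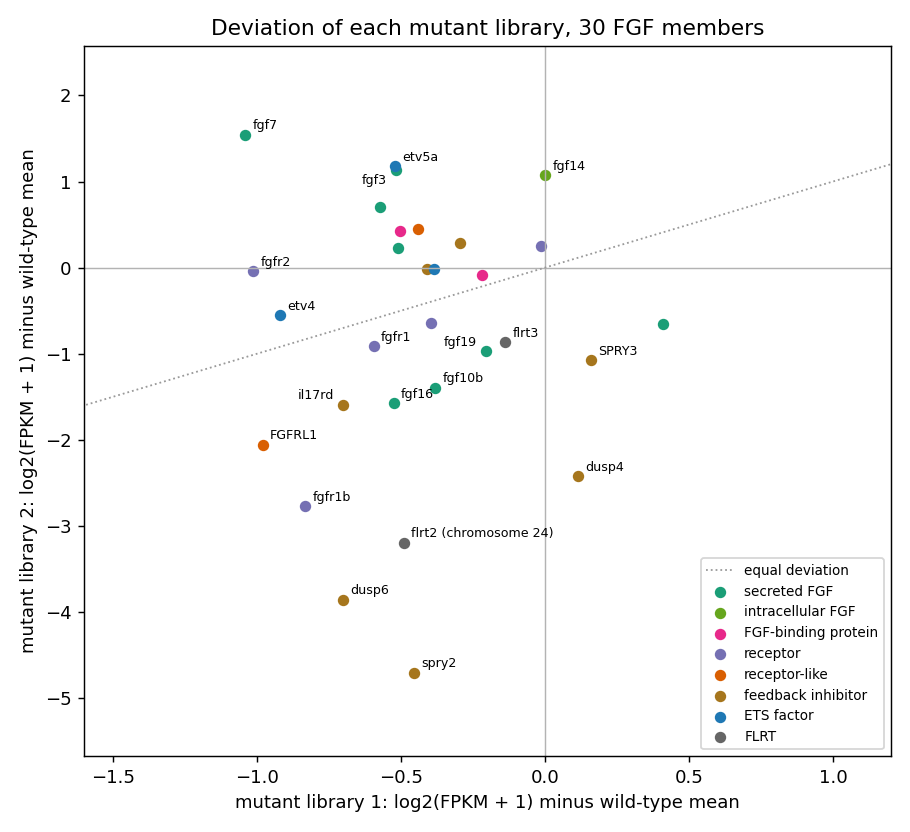
Deviation from the wild-type mean on the log2(FPKM + 1) scale in mutant library 1 (horizontal axis) and mutant library 2 (vertical axis), 1 point per tested gene, coloured by role. The axes have different scales, and the dotted line marks equal deviations. spry2, dusp6 and the flrt2 copy on chromosome 24 lie lowest in mutant library 2, while fgf7, etv5a and fgf3 lie left of and above 0.

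Secreted ligands showed no shared direction. The 8 that were tested had a median log2 difference of -0.13, with 5 lower and 3 higher. They summed to 32.3 and 54.7 FPKM in mutant libraries and to 39.2, 45.0 and 53.0 FPKM in wild-type libraries. A row with no symbol, described as putative fibroblast growth factor 1, is outside that sum. It stood at 21.7 and 67.1 FPKM in mutants and at 28.6, 16.1 and 15.6 FPKM in wild-type libraries. fgf19 was the ligand with the highest wild-type mean. Its mammalian relative is a hormone of the gut that restrains bile acid synthesis in the liver. It was read at 19.4 and 10.96 FPKM in mutant libraries and at 17.6, 24.5 and 26.3 FPKM in wild-type libraries, a log2 difference of -0.59 (SE 0.35, limma adjusted p = 0.408). Mutant library 1 was inside the wild-type range and mutant library 2 below it. The summed liver and pancreas markers were above the wild-type range in mutant library 1 and below it in mutant library 2. Of 13 tested, 10 had a lower mean in mutants and 3 a higher one. Among the higher ones, fabp10a was at 13745 and 8633 FPKM in mutants and 4795 to 7002 FPKM in wild-type libraries. The part of these markers in the fgf19 level was not tested.

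fgf7, fgf10a, fgf10b and fgf22 belong to a subfamily whose mammalian members signal from mesenchyme to epithelium. fgf7 stood at 2.77 and 21.6 FPKM in mutant libraries, from 43 and 460 reads, and at 6.18, 7.79 and 6.41 FPKM in wild-type libraries. The 2 mutants thus lay on opposite sides of a narrow wild-type range, and the log2 difference of 0.25 (95% interval -1.39 to 1.90, adjusted p = 0.854 from limma) averages opposite values. fgf10a followed the same pattern at 2.10 and 6.50 FPKM in mutants and 3.25, 3.33 and 4.34 FPKM in wild-type libraries. Its second copy did not: fgf10b was at 1.02 and 0 FPKM in mutants and at 1.04, 1.72 and 2.28 FPKM in wild-type libraries, with no read in mutant library 2. fgf10a therefore made up 67.4% and 100% of the summed FPKM of both copies in mutants and 75.8%, 66.01% and 65.5% in wild-type libraries. fgf22 varied most of these 4 among wild-type libraries, at 2.35, 1.43 and 5.80 FPKM, and both mutants (1.67 and 3.48 FPKM) lay inside that range.

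fgf3, needed for pharyngeal cartilage in zebrafish, was at 3.17 and 12.1 FPKM in mutants and at 6.01, 3.78 and 5.33 FPKM in wild-type libraries. The mutants again enclosed the wild-type range (log2 difference 0.31, SE 0.56, limma adjusted p = 0.761). The gene lies in a group of 3 ligand genes on chromosome 3, all on the minus strand in the deposited table: fgf19 (4727633 to 4737903), fgf4 (4760561 to 4767114) and fgf3 (4772079 to 4774258). The gap between fgf4 and fgf3 was 4.96 kb and that between fgf19 and fgf4 22.7 kb. Within this 46.6 kb fgf4 had no read in any library, while its neighbours on both sides were read in all of them. fgf16, a relative of FGF9, was at 1.07 and 0 FPKM in mutants and at 1.61, 2.23 and 2.15 FPKM in wild-type libraries, so both mutants lay below all wild-type libraries (log2 difference -1.05, SE 0.46, limma adjusted p = 0.399). fgf1a, which in mammals lacks a signal peptide, rested on 13 and 0 reads in mutants and on 14, 4 and 6 in wild-type libraries.

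fgf14 encodes an intracellular relative that in mammals binds voltage-gated sodium channels and does not act through receptors. It was the only one of 6 such genes to enter the test and had a uniform wild-type level of 5.37, 5.56 and 5.70 FPKM (SD 0.169), with 5.54 FPKM in mutant library 1 and 12.8 FPKM in mutant library 2. The log2 difference of 0.54 (SE 0.44, limma adjusted p = 0.503) came from that last library. fgfbp3, the second FGF-binding protein tested, was at 12.1 and 13.3 FPKM in mutants and at 14.9, 10.3 and 18.7 FPKM in wild-type libraries, with both mutants inside the wild-type range (log2 difference -0.15, 95% interval -0.96 to 0.65).

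The receptors were lower in sum as deposited. The 5 tyrosine kinase receptor genes together had 59.7 and 67.0 FPKM in mutant libraries and 79.0, 114 and 86.7 FPKM in wild-type libraries. These groups did not overlap, but that depends on the scaling of mutant library 2. The library size implied by its FPKM was 1.23 times its recovered reads, against 1.04 to 1.08 times in wild-type libraries. The gene with the greatest difference among them was fgfr1b, 1 of 2 copies of FGFR1 (chromosome 12, 1041296 to 1049532, plus strand). It stood at 10.3 and 1.95 FPKM in mutants, from 809 and 210 reads, and at 14.5, 25.5 and 18.9 FPKM in wild-type libraries. Both mutants were below all wild-type libraries, mutant library 2 by far the more, and the log2 difference was -1.80 (SE 0.58, unadjusted p = 0.0155, limma adjusted p = 0.399). Without mutant library 2 it was -0.83.

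The other copy, named fgfr1, was also lower in both mutants, at 6.96 and 5.38 FPKM against 8.81, 13.97 and 10.8 FPKM in wild-type libraries (log2 difference -0.75, SE 0.36, limma adjusted p = 0.399). fgfr1b made up 59.7% and 26.6% of both copies in mutants and 62.2%, 64.6% and 63.5% in wild-type libraries, a share below the wild-type range in both mutants and under that of fgfr1 in mutant library 2. The part of reads that fit both copies in these shares was not tested. fgfr2 was lower in mutant library 1, at 14.5 FPKM, but inside the wild-type range in mutant library 2, at 29.5 FPKM, with 25.4, 36.9 and 29.8 FPKM in wild-type libraries. fgfr4, the main FGF receptor of mammalian liver, was at 9.50 and 7.85 FPKM in mutants and at 11.8, 14.6 and 12.2 FPKM in wild-type libraries, with no overlap (log2 difference -0.52, 95% interval -1.26 to 0.22).

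fgfr3, which restrains chondrocyte growth in mammals, was the only one of the 5 receptors with a higher mean in mutants, and 0 of the 5 passed the test. It was at 18.4 and 22.3 FPKM in mutants and at 18.5, 23.04 and 15.0 FPKM in wild-type libraries, 20.4 ± 2.79 (SD, n = 2) and 18.8 ± 4.04 (SD, n = 3), a log2 difference of 0.12 (95% interval -0.58 to 0.82, limma adjusted p = 0.833). Its share of the summed receptor FPKM was 30.8% and 33.3% in mutants and 23.4%, 20.2% and 17.3% in wild-type libraries. The groups did not overlap, and the difference in share was 11.8 percentage points (exact two-sided permutation p = 0.1, the smallest p that 2 against 3 libraries allow, and 0.25 adjusted over the 5 receptors). The share of fgfr1b differed by -10.7 points with the same p. The shares of fgfr1, fgfr2 and fgfr4 differed by -2.12, 1.203 and -0.12 points (exact permutation p = 0.2, 0.8 and 0.9). A share moves whenever another receptor moves, and the deposited level of fgfr3 itself stayed inside the wild-type range in both mutants. In recovered reads, fgfr3 had 5762 in mutant library 2, above the 3402 to 5052 in wild-type libraries. The recovered totals were 27916294 in that library and 24791662 to 28012092 in wild-type libraries. Its place inside the range thus depends on the scaling of mutant library 2.

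**Figure D4:**
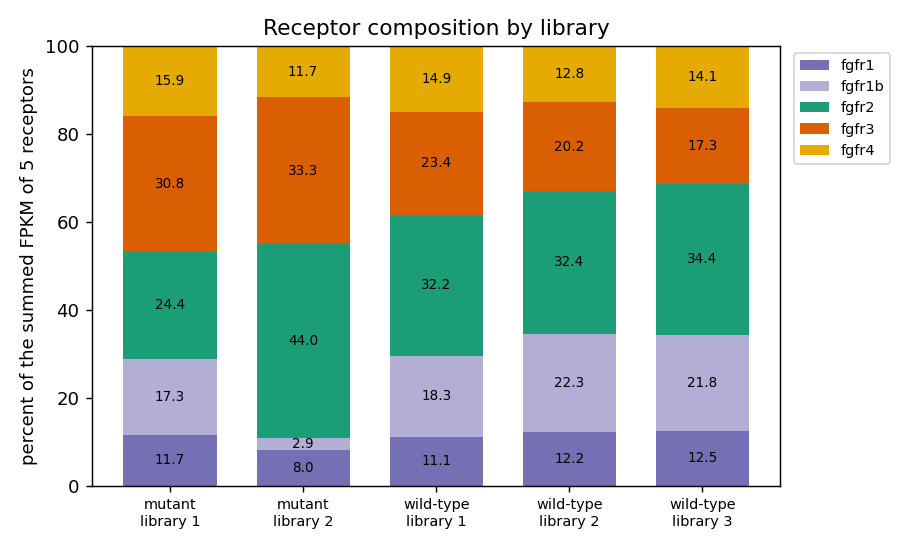
Share of each of the 5 tyrosine kinase receptor genes in their summed FPKM (vertical axis, percent), 1 bar per library, with 2 mutant libraries on the left and 3 wild-type libraries on the right. The fgfr3 share is 30.8% and 33.3% in mutants and 17.3% to 23.4% in wild-type libraries, and the fgfr1b share is 2.91% in mutant library 2.

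FGFRL1, a receptor-like protein with no kinase domain that binds FGFs, had the smallest p of the set. This copy (ENSORLG00000015894, chromosome 22, 12237429 to 12265496, minus strand, 2577 bases) stood at 16.7 and 7.42 FPKM in mutants, from 1082 and 658 reads, and at 28.6, 39.0 and 35.2 FPKM in wild-type libraries, from 1911, 2941 and 2749 reads. Both mutants were well below all wild-type libraries, at 0.488 and 0.216 times the wild-type mean. The means were 12.1 ± 6.59 FPKM (SD, n = 2) in mutants and 34.3 ± 5.24 FPKM (SD, n = 3) in wild-type libraries. The log2 difference was -1.52 (SE 0.37, 95% interval -2.39 to -0.65), with an unadjusted p of 0.00409 and a limma adjusted p of 0.399, rank 59 of 13680 genes by p. The exact two-sided permutation test gave p = 0.1, the smallest possible. Over all alternative settings the difference ran from -2.06 to -0.98 and kept its sign, with a limma adjusted p of 0.104 to 0.784 in the settings that kept both mutants. The adjusted p was 0.522 with mutant library 1 as the only mutant, and 0.000337 with mutant library 2 as the only one, where 54.3% of all genes passed.

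The second copy, fgfrl1a (chromosome 10, 5743525 to 5829770, minus strand), differed in direction between the mutants. It was at 2.28 and 5.07 FPKM in mutants and at 3.72, 3.78 and 2.92 FPKM in wild-type libraries. Mutant library 1 was thus below the wild-type range and mutant library 2 above it. The log2 difference of 0.002 (95% interval -1.08 to 1.09) averages these opposite values. FGFRL1 made up 88.0% and 59.4% of both copies in mutants and 88.5%, 91.2% and 92.3% in wild-type libraries. In mutant library 1 that share was only just below the wild-type range. Of 19 tested chondrocyte markers 16 had a lower mean in mutants and 0 passed. Their median log2 difference was -1.11, and their summed level was 211 and 244 FPKM in mutants against 397 to 497 FPKM in wild-type libraries. The 4 with the smallest p were matn1, col9a2, col9a1a and hapln1b, with log2 differences of -1.64, -1.39, -1.19 and -1.13, while sox9, the cartilage transcription factor, was at 5.07 and 10.1 FPKM in mutants and 9.22 to 12.5 FPKM in wild-type libraries. The 3 markers with a higher mean in mutants were col11a2, sox6a and sox6b. Of these, col11a2 was at 40.7 and 54.7 FPKM in mutants and 32.2 to 40.4 FPKM in wild-type libraries. The part of chondrocyte content in the FGFRL1 difference was not tested.

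Of the 7 tested feedback inhibitors 0 passed the test over all genes. All 7 had a lower mean in mutants, where 65.9% of all tested genes did, and they include spry4 at a difference of -0.003 and il17rd, which passed the filter through wild-type libraries alone. With quantile normalization spry4 and SPRY3 were higher in mutants, and with median-of-ratios scaling spry4 was. The median of their log2 differences was -1.14. Their summed level was 49.2 and 19.8 FPKM in mutants and 58.7, 65.6 and 76.2 FPKM in wild-type libraries. spry2, a sprouty protein that blocks signalling to Ras, was at 18.0 and 0 FPKM in mutants and at 21.5, 23.8 and 30.7 FPKM in wild-type libraries. It had 465 reads in mutant library 1 and none in mutant library 2, where 3 reads would equal 0.0847 FPKM. dusp6, the phosphatase that inactivates ERK in the cytoplasm, was at 7.91 and 0 FPKM in mutants, from 604 and 0 reads, and at 12.5, 12.8 and 15.3 FPKM in wild-type libraries. In both genes mutant library 1 was below the wild-type range, for dusp6 well below it, and mutant library 2 had no read, which gave log2 differences of -2.58 (SE 1.05) and -2.28 (SE 0.83), both with a limma adjusted p of 0.399. Without mutant library 2 they were -0.45 and -0.70.

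il17rd, also known as Sef, an inhibitor of FGF signalling in the zebrafish embryo, was at 0.853 and 0 FPKM in mutants and at 1.68, 2.12 and 2.25 FPKM in wild-type libraries. It passed the filter on low values through wild-type libraries alone, so its place among the tested genes that were lower was in part set by that choice. dusp4, a phosphatase that acts on MAP kinases in the nucleus, was inside the wild-type range in mutant library 1 at 8.06 FPKM, with 7.46, 8.29 and 6.43 FPKM in wild-type libraries, and stood at 0.560 FPKM in mutant library 2. Its log2 difference was -1.15 (SE 0.71) with both mutants and 0.12 without mutant library 2. SPRY3 rested on 28 and 0 reads in mutants and on 11, 46 and 28 in wild-type libraries.

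Other inhibitors were, as deposited, inside the wild-type range in that sparse library. spry4 was at 6.70 and 10.6 FPKM in mutants and at 7.27, 7.21 and 11.4 FPKM in wild-type libraries, a log2 difference of -0.003 (95% interval -0.92 to 0.91). spred1, which holds Raf kinase in check, was at 6.32 and 8.64 FPKM in mutants and at 7.86, 9.40 and 8.996 FPKM in wild-type libraries (log2 difference -0.21, 95% interval -1.03 to 0.60). In both genes mutant library 2 was inside the wild-type range as deposited, but this depends on its scaling. In recovered reads it was above that range in both. spry4 had 413 reads there and 214, 240 and 394 in wild-type libraries. spred1 had 2022 reads there and 1384, 1869 and 1852 in wild-type libraries. spry4 and spred1 made up 53.4% and 43.8% of the summed inhibitor FPKM in mutant library 2, against 13.6% and 12.8% in mutant library 1 and at most 15.0% and 14.3% in wild-type libraries. Within the inhibitor group mutant library 2 thus held genes with no read beside genes that were not below the wild-type range.

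The absence of reads in mutant library 2 was compared with all genes. Of 17 pathway genes with at least 5 FPKM elsewhere (in each of the 4 remaining libraries), 3 were without a read there, spry2, dusp6 and the flrt2 copy on chromosome 24, or 17.6%, where 6.26% of 5977 genes at that level had none. At a minimum of 10 FPKM it was 1 of 8 pathway genes (12.5%) and 2.89% of 3904 genes, and at 1 FPKM it was 5 of 26 (19.2%) and 17.4% of 11301 genes.

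The ETS factors with a symbol did not move together. etv4 was lower in both mutants, at 1.83 and 2.65 FPKM against 4.18, 4.14 and 4.75 FPKM in wild-type libraries, 2.24 ± 0.582 (SD, n = 2) and 4.36 ± 0.342 (SD, n = 3), a log2 difference of -0.74 (SE 0.42, limma adjusted p = 0.403). Its extent overlaps that of dhx8 on the other strand. The strand setting is not stated, and whether reads of the 2 genes were mixed was not tested. etv5a was at 5.52 and 20.2 FPKM in mutants, from 669 and 3362 reads, and at 6.74, 8.56 and 10.1 FPKM in wild-type libraries, so that mutant library 1 was below and mutant library 2 above the wild-type range. etv1 was at 1.15 and 1.77 FPKM in mutants and at 1.31, 3.003 and 1.40 FPKM in wild-type libraries, with a log2 difference of -0.20 (95% interval -1.28 to 0.88). A further row, with no symbol and outside this set, is described as ETS variant 5. It was at 7.84 and 4.43 FPKM in mutants and at 10.7, 10.3 and 14.7 FPKM in wild-type libraries. Both mutants thus lay below all wild-type libraries in that row, as in etv4. The etv genes are read out as targets of FGF signalling in zebrafish, as are dusp6 and spry genes.

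The flrt genes encode transmembrane proteins with leucine-rich repeats, which in the frog embryo bind FGF receptors. The flrt2 copy on chromosome 24 (12569291 to 12571267) was at 5.51 and 0 FPKM in mutants and at 5.92, 11.2 and 8.06 FPKM in wild-type libraries, a log2 difference of -1.84 (SE 0.77, limma adjusted p = 0.399) and -0.49 without mutant library 2. Mutant library 1 was just below the wild-type range. flrt3 had 32 and 0 reads in mutants and 69, 10 and 69 in wild-type libraries, and it also passed the filter through wild-type libraries alone. Neural markers summed to 228 and 72.2 FPKM in mutants and to 222 to 231 FPKM in wild-type libraries, and their part was not tested.

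The 22 genes outside the test had wild-type means of at most 0.837 FPKM, and 18 of them had no read in mutant library 2. The secreted ligand fgf18a, related to the chondrocyte regulator of mammals, had 28 and 0 reads in mutants and 42, 85 and 49 in wild-type libraries. It overlaps fbxw11a on the other strand. fgf8b stood at 0.824 and 0.635 FPKM in mutants and at 0.867, 0.908 and 0.673 FPKM in wild-type libraries. It overlaps dpcd on the other strand. fgf8a had 4 and 0 reads in mutants and 14 in wild-type library 3 alone. frs2b, the adaptor that links receptors to Ras, was at 0.422 and 0.764 FPKM in mutants and at 0.596, 0.508 and 0.604 FPKM in wild-type libraries. spred3 had 1 and 75 reads in mutants and none in any wild-type library. Its extent overlaps those of 3 other genes in the table, 1 of them on the same strand. That one was at 0 FPKM in mutant library 2. Whether reads were shared with these genes was not tested. fgf5, fgf20b and flrt1b were seen by 2 reads each in mutant library 1 only. At the edge of the filter, flrt3 and fgf1a reached 1 FPKM in 2 libraries each, and the flrt2 copy on chromosome 22, fgf11a and spred3 reached it in 1.

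The genes between receptor and target were read from lists of the ERK relay, of heparan sulfate genes and of further inhibitors. Of 27 tested relay genes 0 passed, with 21 lower and 6 higher and a median log2 difference of -0.37. map2k2a, a MEK kinase, was at 1.27 and 0.0560 FPKM in mutants and 2.04 to 3.85 FPKM in wild-type libraries, and mapk3, which encodes ERK1, was at 25.3 and 9.45 FPKM in mutants and 26.6 to 30.9 FPKM in wild-type libraries. Of 24 heparan sulfate and co-receptor genes 0 passed (15 lower, 9 higher, median -0.34), and HS3ST1, a sulfotransferase, had the smallest p, at 12.8 and 9.62 FPKM in mutants and 18.3 to 20.4 FPKM in wild-type libraries. Of 13 further phosphatases and inhibitors 0 passed (11 lower, 2 higher, median -0.41). dusp1, an early-response phosphatase, was at 18.8 and 12.9 FPKM in mutants and 27.2 to 31.8 FPKM in wild-type libraries, with a log2 difference of -0.86 (SE 0.28, limma adjusted p = 0.399). All 3 list medians lay within 0.1 of the median of all tested genes, -0.31.

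Symbols and descriptions in the deposited table did not always match. For 5 of the 52 genes the description names another family protein: fgf19 is described as FGF21, fgf10a as FGF7, fgf22 as FGF10, SPRY3 as sprouty 2 and spred3 as Spred-1. A further 8 rows have no symbol but are described as FGFs, FGF receptors, Spred proteins or ETS variant 5, and they are not among the 52. The one with the highest single value, described as putative fibroblast growth factor 1 (ENSORLG00000001499), stood at 21.7 and 67.1 FPKM in mutants and at 28.6, 16.1 and 15.6 FPKM in wild-type libraries. The one described as Spred-2 stood at 24.8 and 16.4 FPKM in mutants and at 23.7, 36.3 and 32.6 FPKM in wild-type libraries. Neither row is part of the ligand or inhibitor sums and shares given above. The 52 genes lie on 20 chromosomes.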

How the data were processed

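Messenger RNA was sequenced in 2 mutant and 3 wild-type libraries. The submitters' processing notes list HISAT2 2.0.5 and featureCounts 1.5.0-p3. Not given in the sources used here are the genome build, the annotation and the strand setting, and coordinates are those of the deposited table. The authors deposited FPKM per gene and library beside a gene length in bases. Multiplied by length, FPKM came out in whole steps, so reads were recovered (100% of values above 0 within 0.02 reads). The library size implied in this way was 0.980 and 1.23 times the recovered reads in mutants and 1.04 to 1.08 times in wild-type libraries. A count of 3 reads on 1 kb equals 0.0871 to 0.120 FPKM, and this limit covers counting error alone.

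Groups came from the genotype in the labels. limma 3.58.1 (R 4.3.3) was fitted to log2(FPKM + 1) with a mean-variance trend and no covariate. It covered 13680 genes that reached 1 FPKM in 2 or more libraries, with Benjamini-Hochberg adjustment and a threshold of 0.05. The procedure was checked on simulated data with equally complete libraries. That check did not cover a library as sparse as mutant library 2. Differences on the log2(FPKM + 1) scale understate those of low genes. Single values were compared by exact permutation over 10 assignments of libraries (python 3.11.15, numpy 2.4.6, pandas 2.3.3, scipy 1.17.1, matplotlib 3.10.9). The members and lists were chosen with earlier results of these data known. Every member could be named, the col10a1 copies as the targeted gene, and of each other list up to 4 genes with the smallest p. sp7, phospho1, entpd5b, apoa1b, sox9, col11a2, sox6a, sox6b and mapk3 fall outside that rule and were named after their values were seen. Alternatives were a pseudocount of 0.1, no filter, a filter at 5 FPKM, scaling by quantiles or by the median of ratios, array weights, a replicate block, voom on recovered reads and leaving out each library.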

Additional observations from a re-analysis of the deposited data

How the results depend on the processing

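Over 13 alternative settings, 312 of 362 values of 29 members other than FGFRL1 kept their direction and their side of the threshold, 15 passed it and 35 changed sign. Leaving out each library gave 0.00756% to 54.3% of all tested genes called (1 to 7239 genes), 0 to 15 FGF pathway genes called, a median of the tested pathway genes of -0.61 to -0.41, and an FGFRL1 difference of -2.06 to -0.98. The highest counts came with mutant library 2 as the only mutant. That median was -0.20 with no filter and -0.083 with quantile normalization, where the median of all genes was 0.01. Replicate numbers are shared by 2 mutant and 2 wild-type libraries, whose deviations from the group means correlated at 0.06 and -0.01. The deviations of the 2 mutant libraries mirror each other, so these values could not decide whether the numbers pair libraries. The main fit used no pairing. With the replicate block 1.06% of all tested genes were called (22 higher, the rest lower) and 1 pathway gene, spry2 (-2.44, limma adjusted p = 0.00827). In that fit the difference for spry2 equalled the one found without the wild-type library whose number no mutant shares. The prior degrees of freedom were infinite, so this p rested on a variance pooled over genes and not on the spread of spry2 itself. spry2 had no read in mutant library 2, and its p with the block is not evidence at the level of that gene. The block also turned fgfbp3 to 0.032, fgfr3 to -0.025, spry4 to 0.19, fgfrl1a to -0.090 and fgf22 to 0.28. Quantile normalization turned spry4 to 0.13, fgf22 to 0.14, etv1 to 0.28, SPRY3 to 0.18, flrt3 to 0.033 and fgf1a to 0.36. Median-of-ratios scaling turned fgfbp2b to 0.066 and spry4 to 0.093, voom turned them to 0.027 and 0.065, and a pseudocount of 0.1 turned fgfrl1a to -0.017. Leaving out each library gave -0.50 to 0.42 for fgfbp2b, -0.37 to 0.032 for fgfbp3, -1.04 to 1.54 for fgf7, -0.025 to 0.27 for fgfr3, -0.52 to 1.18 for etv5a, -0.30 to 0.29 for spry4 and -2.42 to 0.12 for dusp4. It gave -0.52 to 1.14 for fgf3, -0.44 to 0.45 for fgfrl1a, -0.57 to 0.70 for fgf10a, -0.51 to 0.28 for fgf22, -0.39 to 0.052 for etv1, -1.08 to 0.16 for SPRY3 and -0.27 to 0.41 for fgf1a. The cause was not tested.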
